A study of Mus with 15 samples.

Results

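The insulin-like growth factor (IGF) system was followed through 10 genes in mouse adipose tissue after fat grafting. They are the ligands Igf1 and Igf2, the receptors Igf1r and Igf2r, and the binding proteins Igfbp2 to Igfbp7. The genes were taken by their symbols from a deposited matrix of 55471 genes, where each was found once under an Ensembl identifier. RNA sequencing had been done on 3 groups of 5 samples, namely control adipose tissue and grafted fat taken at day 3 or at day 7. All groups came from wild type C57BL/6 mice aged 7 weeks. Neither the site of the grafts nor whether each sample had its own animal is stated in these sources, so p-values measure the spread between these samples.

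IGF1 and IGF2 are small secreted hormones that promote the growth and survival of many cell types, and in adipose tissue IGF1 acts on the precursors of fat cells. Both activate the tyrosine kinase receptor IGF1R, whereas IGF2R carries IGF2 and lysosomal enzymes into the cell without signalling through a kinase. Secreted binding proteins hold most IGF, prolong its life and set how much reaches the receptor. Proteases that cut the binding proteins release the ligand.

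Samples held 17.1 M to 32 M estimated counts. All 10 genes passed the filter on low counts, as did 16051 genes in all. Day 3 graft 1 (6.6) and day 7 graft 5 (-11.9) stood apart from their groups on the second principal component, where the remaining grafts were at -58.2 to -36.3 (day 3) and at 40.4 to 57.1 (day 7). Control 4 was at -67.7 on that component and the other controls at 2.8 to 30.9. Where leaving out both grafts or control 4 changed a call for a gene named here, the value without them is given, the setting without both grafts having been added after the values were seen. For Igf1, Igf2, Igfbp3, Adamts1 and H19 each of these grafts was the highest or lowest of its group in CPM. Their p-values without these grafts are thus no independent support. Levels of 1 gene across samples are CPM (counts-per-million after scaling), levels of different genes are compared as deposited TPM (per length), and changes are fitted log2 fold changes ± SE of 5 samples against 5. Called means an adjusted p under 0.05, with the adjustment made over all tested genes.

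At day 3 the transcripts of Igfbp3, Igf2r and Igf1r were higher than in control tissue, and those of Igfbp5, Igfbp2, Igf1 and Igfbp4 were lower. Igfbp3 changed most, from a mean of 37.6 to 1065 CPM. At day 7 Igfbp3, Igf2r, Igf1r and Igfbp7 were higher than in the controls and Igfbp5 was lower, while the change of Igf1 was not called. Counts of called genes stand beside the background below, after the values of each gene.

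**Figure D1:**
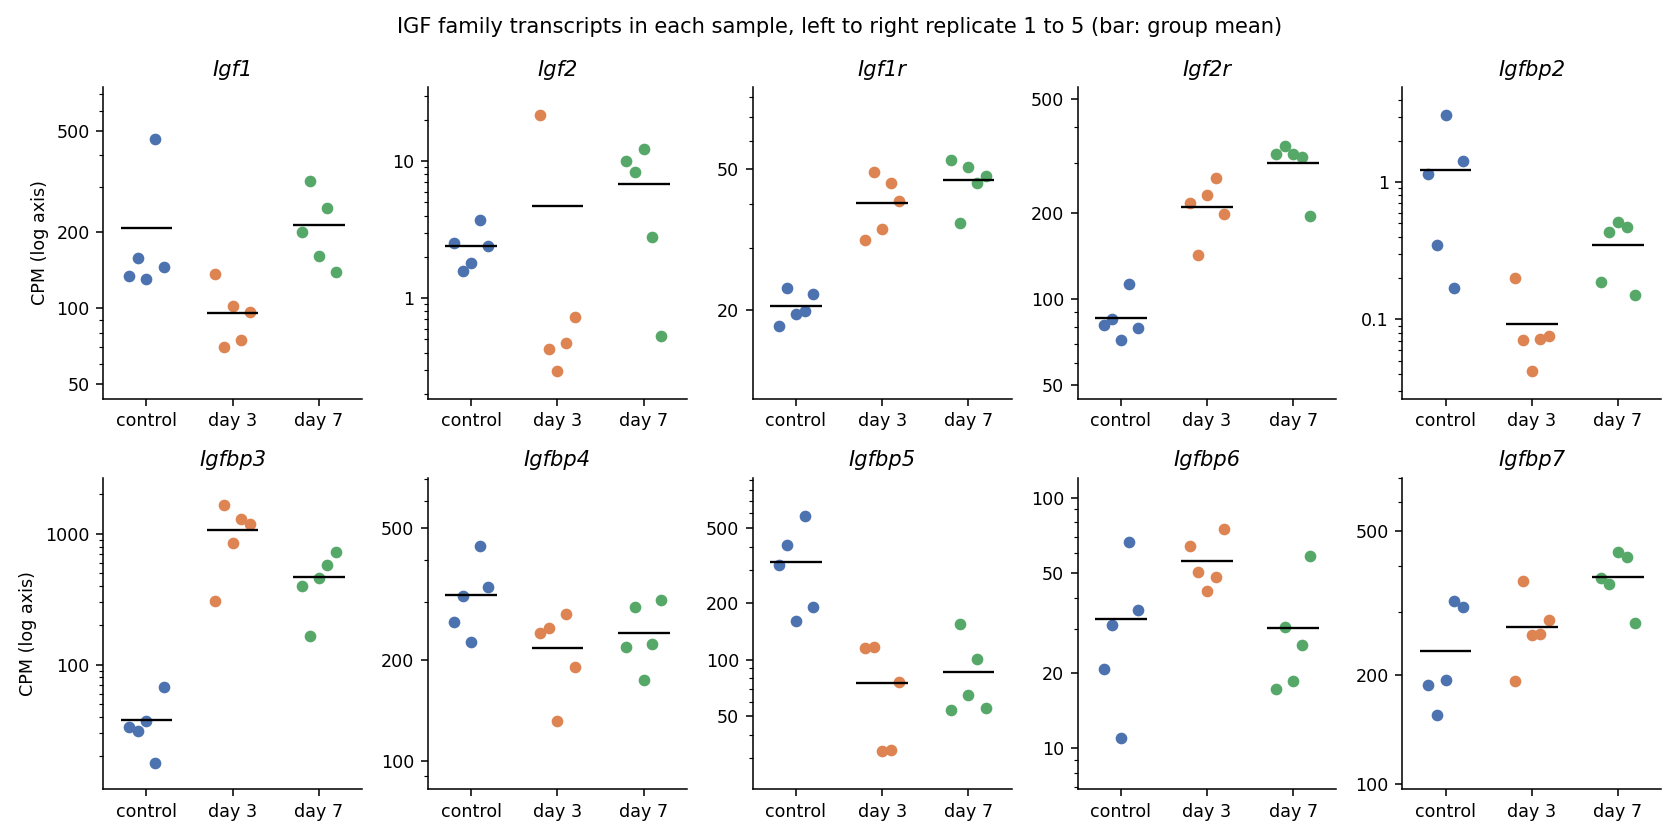
Level of each of the 10 IGF genes in every sample, in CPM on a log axis that differs between panels. Points are replicates 1 to 5 from left to right and bars are group means. For Igfbp3, Igf1r and Igf2r every graft lies above every control, and for Igf2 day 3 graft 1, at 21.65 CPM, lies far above the other day 3 grafts.

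Igf1 (chr10:87858265-87937042, plus strand, mm10) is the main ligand of adult tissue. Controls 1 to 5 held 134, 158, 130, 464 and 145 CPM, day 3 grafts 136, 70.2, 102, 74.6 and 96.2 CPM, and day 7 grafts 199, 318, 161, 248 and 139 CPM. Control 4 stood far above the other controls, and every day 7 graft lay above every day 3 graft. Igf1 fell at day 3 by 0.93 ± 0.32 (1.91-fold, adjusted p = 0.0205), and without day 3 graft 4 the change was -0.84 with an adjusted p of 0.0511. At day 7 the change against control was 0.20 ± 0.33 (adjusted p = 0.625, not called), with medians of 145 CPM in the controls and 199 at day 7. It was 0.53 without control 4 (not called), and it was called with quality weights (0.57, adjusted p = 0.0171). Leaving out 5 libraries together, namely controls 2, 4 and 5, day 3 graft 1 and day 7 graft 5, gave 0.70 (adjusted p = 0.0253). That setting, named below as without the 5 libraries, keeps only controls 1 and 3. Between the grafts the change was 1.13 ± 0.33 (adjusted p = 0.0613, not called). That difference was called without control 4 (1.12, adjusted p = 0.00813), without day 3 graft 1 (1.27, adjusted p = 0.0486) and without day 7 graft 5 (1.27, adjusted p = 0.0343). With both of these grafts left out it was 1.41 (adjusted p = 0.0267).

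Igf2 (chr7:142650766-142666816, minus strand), a ligand that is abundant in the fetus and expressed from the paternal allele in most mouse tissues, was scarce and uneven. Controls 1 to 5 held 2.51, 1.57, 1.81, 3.71 and 2.41 CPM. Day 3 graft 1 held 21.65 CPM, while day 3 grafts 2 to 5 held 0.427, 0.295, 0.468 and 0.723 CPM, below every control. Day 7 grafts 1 to 5 held 9.96, 8.34, 12.3, 2.79 and 0.527 CPM, so that 3 of them lay above every control and 1 below. The fitted change was -1.23 ± 1.18 at day 3 (adjusted p = 0.379), although the mean rose from 2.40 to 4.71 CPM through that 1 library. It was 0.97 ± 0.96 at day 7 (adjusted p = 0.394) and 2.20 ± 1.07 between the grafts (adjusted p = 0.266). With day 3 graft 1 and day 7 graft 5 left out, the changes were -2.30 (adjusted p = 0.00961), 1.72 (adjusted p = 0.00388) and 4.02 (adjusted p = 0.00192) in the same order. These libraries are the highest day 3 and the lowest day 7 sample of Igf2, so the p-values without them are no independent support. Without day 7 graft 5 alone the difference between the grafts was 2.95 (adjusted p = 0.0403), and without day 3 graft 1 alone the change at day 3 was -2.30 (adjusted p = 0.103).

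Among the grafts, some samples high in Igf2 also held more skeletal muscle transcript than the other grafts. These were day 3 graft 1 and day 7 grafts 1 and 3, while day 7 graft 2 did not. The 5 skeletal muscle markers (Acta1, Ckm, Myh4, Tnnt3 and Mylpf) summed to 413 TPM in day 3 graft 1, whereas day 3 grafts 2 to 5 had sums of 5.24 to 9.10 TPM. In day 7 grafts 1 to 5 the sums were 193, 16.8, 349, 17.3 and 3.68 TPM. None of the 5 was called in any comparison, and none was at 0 throughout a group. Myog, a regulator of muscle formation that was picked after the values were seen, was at 45.4 TPM in day 3 graft 1 and at 4.44, 0.730 and 3.62 TPM in day 7 grafts 1 to 3. It was at 0.480 TPM or less in every other library. Control 2, however, held 2670 TPM of the 5 muscle markers with 0.110 TPM of Myog and 1.05 TPM of Igf2, the lowest Igf2 level of the controls. Controls 1, 3, 4 and 5 held 16.9, 110, 126 and 290 TPM of the markers with 1.70 to 2.10 TPM of Igf2. Control 5 thus held more of the muscle markers than day 7 graft 1. The part of muscle in the Igf2 values was not tested.

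**Figure D2:**
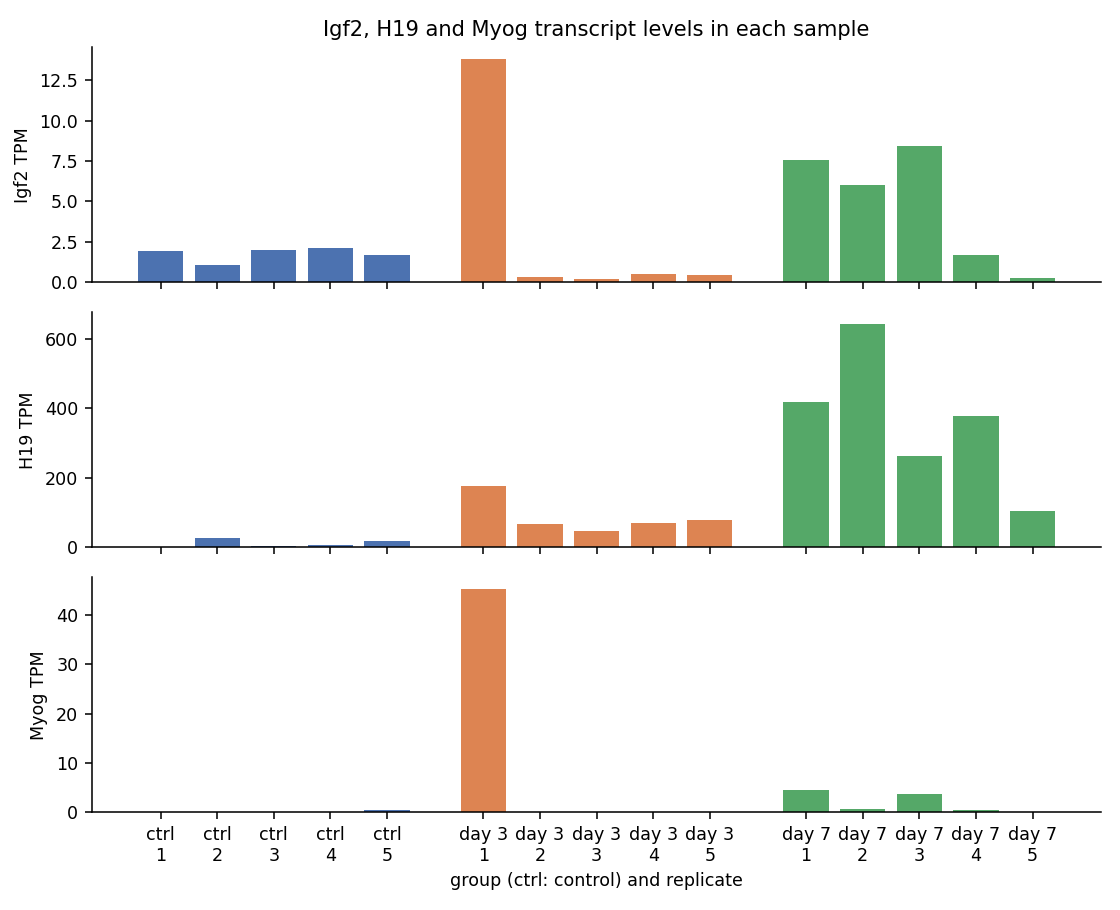
TPM of Igf2 (top), of its neighbour H19 (middle) and of Myog (bottom) in each of the 15 samples, on linear axes. Igf2 and Myog share the tall bar of day 3 graft 1 (13.8 and 45.4 TPM), whereas H19 is highest in day 7 graft 2, at 643 TPM.

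Both receptors were higher in the grafts. Igf1r (chr7:67952827-68233668, plus strand), which passes the signal of both ligands, was at 18.0, 23.1, 19.5, 19.96 and 22.2 CPM in the controls. The day 3 grafts held 31.6, 49.0, 34.0, 45.7 and 40.7 CPM and the day 7 grafts 53.2, 35.4, 50.8, 45.7 and 47.8 CPM. Neither graft group overlapped the controls, and the graft groups overlapped each other. Igf1r rose by 0.96 ± 0.15 at day 3 (adjusted p = 7.27e-05) and by 1.17 ± 0.15 at day 7 (adjusted p = 1.10e-05). The change between the grafts was 0.22 ± 0.14 (adjusted p = 0.410).

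Igf2r (chr17:12682406-12769664, minus strand), the receptor that clears IGF2, was at 81.1, 85.4, 71.9, 113 and 79.3 CPM in the controls and at 217, 143, 231, 264 and 199 CPM in the day 3 grafts. Day 7 grafts 1 to 4 held 323, 344, 322 and 313 CPM, above every day 3 graft, and day 7 graft 5 held 195 CPM. Igf2r rose by 1.28 ± 0.18 at day 3 (2.43-fold, adjusted p = 2.77e-05) and by 1.79 ± 0.18 at day 7 (3.45-fold, adjusted p = 1.76e-06). Between the grafts the change was 0.50 ± 0.19 (adjusted p = 0.149), and it was 0.65 without day 7 graft 5 (adjusted p = 0.0317) and 0.67 without day 3 graft 1 as well (adjusted p = 0.0438). Per length there was more Igf2r than Igf1r in every sample. The ratio of their TPM averaged 4.66 ± 1.37 (SD, n = 5) in control tissue and, in the grafts, 6.17 ± 2.13 (day 3) and 7.29 ± 2.55 (day 7), with overlap between all groups.

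Igfbp3 (chr11:7206086-7213923, minus strand), the main carrier of IGF in the circulation and a secreted product of stromal cells, moved most. Controls 1 to 5 held 33.6, 31.4, 37.1, 17.9 and 68.0 CPM. The day 3 grafts held 309, 1674, 854, 1307 and 1183 CPM and the day 7 grafts 399, 165, 461, 579 and 729 CPM. The lowest graft, day 7 graft 2, was still above the highest control. Igfbp3 rose by 4.75 ± 0.47 at day 3 (26.9-fold, adjusted p = 1.49e-06) and by 3.62 ± 0.45 at day 7 (12.3-fold, adjusted p = 9.02e-06). Over all alternatives the change lay between 4.51 and 5.15 at day 3 and between 3.31 and 3.95 at day 7. Day 7 grafts were lower than day 3 grafts by a fitted -1.13 ± 0.50 (adjusted p = 0.218, not called). With day 3 graft 1 and day 7 graft 5 left out this was -1.73 (adjusted p = 0.0367).

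Igfbp5 (chr1:72857932-72874884, minus strand), a binding protein that also attaches to extracellular matrix, went the other way. Its controls held 320, 406, 162, 580 and 191 CPM, its day 3 grafts 115, 117, 32.8, 33.1 and 76.5 CPM, and its day 7 grafts 53.9, 155, 64.7, 101 and 55.7 CPM. Every graft lay below every control. Igfbp5 fell by 2.20 ± 0.46 at day 3 (4.61-fold, adjusted p = 0.000847) and by 1.92 ± 0.46 at day 7 (3.78-fold, adjusted p = 0.00242). The graft groups differed by 0.29 ± 0.44 (adjusted p = 0.777).

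Igfbp2 (chr1:72824503-72852474, plus strand), a product of fat cell precursors and liver, was the scarcest binding protein. Controls 1 to 5 had 22, 6, 68, 4 and 30 counts, or 1.15, 0.348, 3.07, 0.168 and 1.42 CPM. Day 3 grafts had 5, 2, 1, 2 and 2 counts, 12 in all, and day 7 grafts 5, 13, 17, 10 and 4 counts. Control 4 lay below day 3 graft 1 and among the day 7 grafts. Igfbp2 fell at day 3 by 3.02 ± 0.82 (adjusted p = 0.00531), a size that depends on the small offset added before taking logs. Without control 4 it fell by 3.61 (adjusted p = 0.000459). At day 7 the change was -1.30 ± 0.68 (adjusted p = 0.110, not called), and without control 4 it was -1.89 (adjusted p = 0.00923). Between the grafts it was 1.73 ± 0.86 (adjusted p = 0.277), and without the 5 libraries 2.24 (adjusted p = 0.018).

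Igfbp4 (chr11:99041244-99054392, plus strand), which restrains IGF until the protease PAPPA cuts it, had the second highest mean TPM of the family in control tissue. Its range was 228 to 441 CPM in the controls, 131 to 276 at day 3 and 175 to 303 at day 7. It fell at day 3 by 0.54 ± 0.22 (adjusted p = 0.0463), a call that was lost in 11 of 27 alternatives. Among them were the fits without control 2, 4 or 5, day 3 graft 3 or 5, or day 7 graft 1 or 4, with changes of -0.54, -0.41, -0.52, -0.36, -0.51, -0.54 and -0.54. At day 7 its change was -0.37 ± 0.22 (adjusted p = 0.168), and between the grafts it was 0.17 ± 0.22 (adjusted p = 0.725).

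Igfbp6 (chr15:102144362-102149511, plus strand), which prefers IGF2 over IGF1, held 20.7, 31.0, 10.98, 66.4 and 35.6 CPM in the controls, 64, 50.8, 42.5, 48.5 and 75.2 at day 3, and 17.2, 30.6, 18.5, 25.9 and 58.8 at day 7. Apart from control 4, every control lay below every day 3 graft. The change at day 3 was 0.97 ± 0.41 (adjusted p = 0.0507, not called), and it was called without control 4 (1.32, adjusted p = 0.00733) and without day 7 graft 5 (0.97, adjusted p = 0.0321). At day 7 it was -0.05 ± 0.42 (adjusted p = 0.931), with a sign that turned under library totals and under TPM. Between the grafts it was -1.02 ± 0.40 (adjusted p = 0.161, not called) and, without the 5 libraries, -1.25 (adjusted p = 0.00489). Without day 7 graft 5 that difference was -1.30, with an adjusted p just under the threshold.

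Igfbp7 (chr5:77349240-77408041, minus strand), a related protein of low affinity for IGF that is made by vessels and stroma, ranged from 155 to 321 CPM in the controls, 193 to 363 at day 3 and 279 to 438 at day 7. At day 3 the change was 0.26 ± 0.21 (adjusted p = 0.313), and it was called with quality weights (0.51, adjusted p = 0.00846), on TPM (0.54) and without the 5 libraries (0.54, adjusted p = 0.01). At day 7 it rose by 0.73 ± 0.22 (1.66-fold, adjusted p = 0.00982), and 4 of the 5 day 7 grafts lay above every control. The graft groups differed by 0.47 ± 0.22 (adjusted p = 0.251), and without the 5 libraries by 0.45 (adjusted p = 0.0305).

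**Figure D3:**
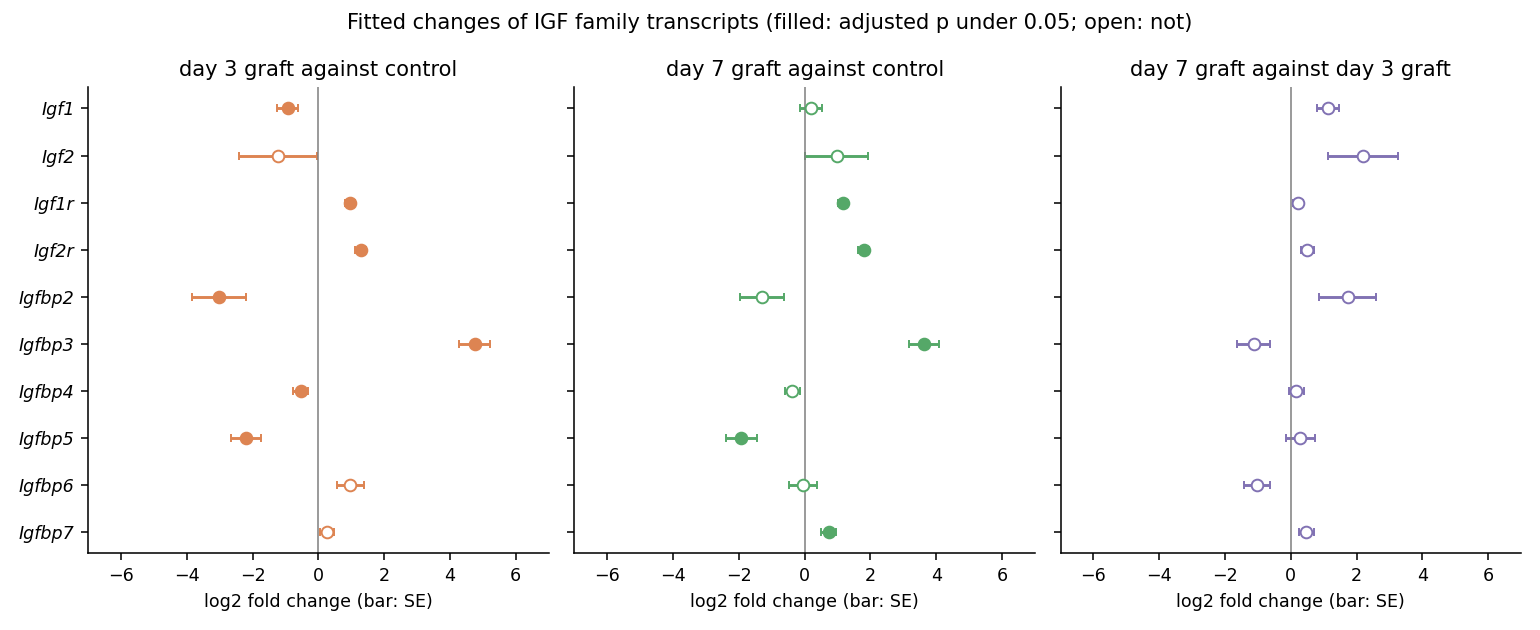
Fitted log2 fold changes of the 10 genes in the 3 comparisons, with SE as bars, filled where the adjusted p is under 0.05 and open where it is not. Igfbp3 stands furthest to the right against control at both days (4.75 and 3.62), Igfbp5 is to the left at both (-2.20 and -1.92), and no point is filled in the comparison of the grafts.

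Of the 10 genes, 3 were called higher and 4 lower at day 3 against control. Among all tested genes 30.1% were called higher and 30.2% lower, so the 7 calls are near the background. The samples of the groups did not overlap for 4 of the 10 (Igf1r, Igf2r, Igfbp3 and Igfbp5), against 40.4% of all genes. At day 7 against control 4 were called higher and 1 lower, against 32.3% and 28.4% of all genes, and for the same 4 the samples did not overlap, against 42.5%. On deposited TPM the split of all calls moved from 4838 higher and 4846 lower to 6301 and 2967 at day 3, and from 5177 and 4559 to 7396 and 2585 at day 7. Both comparisons use the same controls. Their median changes over the 10 genes were -0.14 and 0.46, beside -0.01 and 0.03 over all genes. The median of all genes was 0.22 and 0.33 on TPM, and 0.12 at day 7 with library totals.

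Between day 7 and day 3 grafts none of the 10 was called by limma-voom, where 3.18% of all genes were called higher and 1.71% lower. At an unadjusted p under 0.05 there were 4 (Igf1, Igf2r, Igfbp3 and Igfbp6). Limma-trend called 0 on CPM and 1 on TPM. The samples did not overlap for 1 gene, Igf1, against 7.89% of all genes. The number called went up to 7 over the alternatives, and it was 4 without day 7 graft 5, 1 without control 4 and 1 without day 3 graft 1. The median change was 0.38, beside 0.02 over all genes.

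Markers of several cell types moved with the groups. Rose and fell mean called here, beside 30.1% of all tested genes called higher and 30.2% lower at day 3, and 32.3% and 28.4% at day 7. All 8 adipocyte markers fell at both days, and their sum was 17710 to 32740 TPM in the controls, 3088 to 11050 at day 3 and 2032 to 4439 at day 7. All 8 macrophage markers rose at both days, with sums of 1189 to 3955, 5338 to 12650 and 12370 to 13830 TPM. Of 8 fibroblast and progenitor markers 4 rose at day 3 and 6 at day 7 (1041 to 3149, 4891 to 10550 and 10880 to 12490 TPM), and of 7 endothelial markers 5 and 6 rose (126 to 194, 213 to 710 and 276 to 599 TPM). Among the fibroblast markers at day 3, the collagens Col3a1 and Col1a1 rose from 2280 to 16430 and from 389 to 4201 CPM. Dpt, Pi16, Lum and Thy1 were not called there (0.02, -0.15, 0.37 and 0.48). Of 6 smooth muscle and pericyte markers 1 rose and 3 fell at day 3, and 2 rose and 1 fell at day 7. Their sum was 98.1 to 170 TPM in the controls, 119 to 171 at day 3 and 891 to 969 in day 7 grafts 1 to 4, with 247 in day 7 graft 5. The 6 B cell and lymph node markers fell at both days, from 55.6 TPM in control 4 and 1178 to 2304 in the other controls to 0.950 to 12.4 in the grafts. No marker of these 6 lists was at 0 throughout a group. Of 5 neutrophil markers 3 rose at both days, with 550 TPM in control 5 as the highest sum of the controls (26.1 to 550), and of 4 keratinocyte markers 1 passed the filter and was not called. Their part in the changes of the IGF genes was not tested, and in such bulk samples fewer cells of a type and less RNA per cell cannot be told apart.

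Per length, the order of the family changed between the groups. In the controls it ran from Igfbp7 (296 ± 86.9 TPM, SD, n = 5) through Igfbp4 (145 ± 15.8), Igf1 (117 ± 49.3), Igfbp5 (60.5 ± 20.4), Igfbp6 (39.3 ± 17.5), Igfbp3 (20.5 ± 11.6), Igf2r (11.1 ± 0.425) and Igf1r (2.55 ± 0.713) to Igfbp2 and Igf2 at 1.75 TPM each. Only Igfbp7 from Igfbp4, and Igf2r from Igf1r, were neighbours whose samples did not overlap. At day 3 Igfbp3 (672 ± 325 TPM) and Igfbp7 (425 ± 94.9) led and overlapped each other, and all samples of Igfbp7 were above those of Igfbp4 (113 ± 33.0). Igfbp6 (88.9 ± 23.4), Igf1 (71.4 ± 17.1), Igf2r (33.9 ± 6.57) and Igfbp5 (18.2 ± 10.5) came next. At day 7 the first places were held by Igfbp7 (641 ± 145 TPM), Igfbp3 (314 ± 130), Igf1 (154 ± 44.9) and Igfbp4 (143 ± 28.2), and neighbours among them overlapped. Igfbp4 did not overlap Igf2r, which came next, and Igfbp5 did not overlap Igf1r. Igf2 and Igfbp2 took the last places in all groups.

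Igfbp3 took 3.58 ± 1.56% of the summed TPM of the 6 binding proteins in control tissue and, in the grafts, 48.3 ± 12.9% (day 3) and 26.4 ± 10.2% (day 7). Day 3 graft 1 had a share of 25.8%, and day 3 grafts 2 to 5 had shares of 50.0% to 57.1%. Igfbp7 took 52.0 ± 7.33%, 33.3 ± 5.16% and 54.8 ± 10.1%. The share of Igfbp4 was 26.0 ± 3.12%, 9.33 ± 4.56% and 12.4 ± 3.25%, and that of Igfbp5 11.2 ± 4.56%, 1.54 ± 1.23% and 1.96 ± 1.2%. For the shares of Igfbp3, Igfbp4 and Igfbp5 neither graft group overlapped the controls. A share can also fall because the sum rises. The mean TPM of Igfbp4 itself was 145, 113 and 143, that of Igfbp7 296, 425 and 641, and that of Igfbp5 60.5, 18.2 and 22.4. The sum itself was 471 to 725 TPM in the controls, 790 to 1877 at day 3 and 1012 to 1423 at day 7. All grafts lay above all controls on this scale, on which the median change of all genes was also higher (0.22 and 0.33). The separation does not hold on CPM. There control 4 held 441, 580 and 321 CPM of Igfbp4, Igfbp5 and Igfbp7. Day 3 graft 1 held 309, 242, 115, 64 and 193 CPM of Igfbp3 to Igfbp7. Divided by the TPM of both ligands the summed TPM came to 5.12 ± 1.37 in control tissue, to 19.9 ± 9.90 in the grafts of day 3 and to 7.82 ± 2.05 in those of day 7. The day 3 grafts ranged from 7.27 to 31.7 and the controls from 2.87 to 6.54 in this ratio, and the day 7 grafts (4.45 to 9.97) overlapped both.

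**Figure D4:**
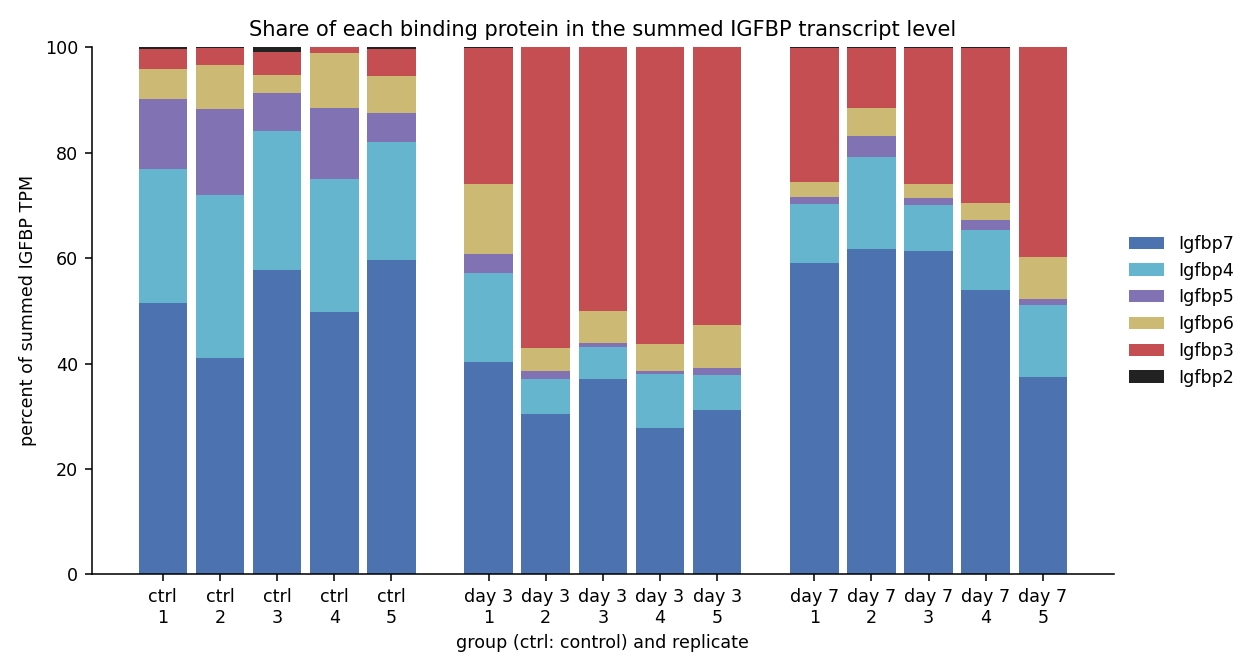
Share of each binding protein in the summed TPM of Igfbp2 to Igfbp7, in percent, with 1 stacked bar per sample. Igfbp3 fills 50.0% to 57.1% of the bar in day 3 grafts 2 to 5 and no more than 5.26% in any control, where Igfbp7 and Igfbp4 take most.

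The other genes of the pathway were 27 genes in 5 lists, of which 23 passed the filter. At day 3 against control 8 were called higher and 7 lower, at day 7 against control 9 and 9, and between the grafts 1 and 2. Among all tested genes 30.1% were called higher and 30.2% lower at day 3, 32.3% and 28.4% at day 7, and 3.18% and 1.71% between the grafts, and the counts of each list below are to be read beside these shares. The median changes of the 23 genes were 0.01, -0.45 and -0.30, beside -0.01, 0.03 and 0.02 over all genes.

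On the growth hormone axis, which drives Igf1 and the circulating carriers, 1 gene rose and 4 fell of 6 tested at day 3, and 1 rose and 5 fell at day 7, where 30.2% and 28.4% of all genes were called lower. Ghr, the growth hormone receptor, went from 834 ± 381 CPM in the controls to 243 ± 78.9 at day 3 and 101 ± 24.1 at day 7. It fell by 1.76 ± 0.31 (adjusted p = 0.000194), by 2.97 ± 0.30 (adjusted p = 1.41e-06) and, from day 3 to day 7, by 1.21 ± 0.28 (adjusted p = 0.0239). The last call was lost without day 3 graft 2, 3, 4 or 5 and without day 7 graft 1 or 3, with changes of -1.23 to -1.10. Igfals, which encodes the acid-labile subunit that joins IGF and IGFBP3 in a large circulating complex, held 18.6, 16.2, 15.1, 40.9 and 8.43 CPM in the controls. It held 0.680 to 2.99 CPM at day 3 and 0 to 1.13 CPM at day 7, with the 0 in day 7 graft 5. Igfals fell by 3.16 ± 0.62 at day 3 (adjusted p = 0.000497) and by 5.74 ± 0.92 at day 7 (adjusted p = 9.29e-05), and the latter was -4.73 without day 7 graft 5 and -4.72 without day 3 graft 1 as well. Over all alternatives the change of Igfals lay between -3.44 and -2.18 at day 3 and between -6.13 and -2.97 at day 7. The day 7 grafts had 0 to 26 counts of Igfals, so the size there depends on the small offset added before taking logs. Igfbp1, the binding protein of liver and decidua, had 2 counts in day 3 graft 5 and 0 in every other library, where a count of 0 allows up to 3 counts, or 0.090 to 0.174 CPM.

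Of the 6 proteases and protease inhibitors 2 rose at day 3, 3 rose at day 7 and none fell against control, beside 30.1% and 32.3% of all genes called higher. Pappa, the metalloprotease that cuts IGFBP4, held 0.542 to 3.17 CPM in the controls, 0.498 to 2.48 at day 3 and 9.92, 10.5, 4.95, 7.84 and 14.3 CPM in the day 7 grafts. Every day 7 graft was above every other sample. Pappa rose by 3.01 ± 0.47 at day 7 against control (8.06-fold, adjusted p = 7.78e-05) and by 3.10 ± 0.45 against day 3 (adjusted p = 0.00221), while its change at day 3 was -0.09 ± 0.59 (adjusted p = 0.904). Both rises stayed called in all 27 alternatives, but their size went down to 0.99 against control and to 0.97 against day 3. The controls had 12 to 67 counts of Pappa. Stc1, a secreted inhibitor of PAPPA, rose by 2.82 ± 0.52 at day 3 (from 4.70 ± 1.97 to 34.4 ± 17.01 CPM, adjusted p = 0.000309). At day 7 it was at 11.9 ± 3.85 CPM, which was 1.39 ± 0.55 above control (adjusted p = 0.0401) and 1.43 ± 0.39 below day 3 (adjusted p = 0.0498). The call against control at day 7 was lost in 10 of 27 alternatives (adjusted p of up to 0.216), among them the fits without control 2, 3, 4 or 5 or day 7 graft 1, 3, 4 or 5 (1.11 to 1.5). The call against day 3 was lost in 20 (adjusted p of up to 0.141), and it held only without control 4, day 3 graft 1 or day 7 graft 5 among the fits without 1 library, the others giving -1.56 to -1.22. Adamts1, a secreted metalloprotease, rose by 2.52 ± 0.34 at day 3 (adjusted p = 1.87e-05) and by 1.39 ± 0.32 at day 7 (adjusted p = 0.00194). Its change between the grafts was -1.14 ± 0.33 (adjusted p = 0.0589), and it was called without control 3, 4 or 5 (each -1.14), without day 7 graft 5 (-1.33) and without both that graft and day 3 graft 1 (-1.41, adjusted p = 0.0251).

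Among the insulin receptor genes and receptor adaptors 2 rose and 3 fell of 7 tested at day 3, and 2 rose and 4 fell at day 7, which at day 3 is near the shares over all genes (30.1% higher and 30.2% lower). Insrr, a receptor related to those of insulin and IGF1, fell by 3.77 ± 0.82 at day 3 and by 4.06 ± 0.84 at day 7 (adjusted p = 0.00118 and 0.000757), from 1.14 to 4.34 CPM to 0.961 CPM or less. Its change at day 3 was -4.44 without day 3 graft 2 and -3.07 without day 3 graft 3. Over the alternatives that tested Insrr, the change lay between -4.61 and -0.56 at day 3 and between -4.53 and -0.62 at day 7. The day 3 grafts had 0 to 27 counts of Insrr and the day 7 grafts 1 to 9. The fitted sizes thus depend on the small offset added before taking logs. Irs1, the substrate that both the insulin and IGF1 receptors phosphorylate, fell by 2.07 ± 0.46 and 2.12 ± 0.46 (adjusted p = 0.00146 and 0.00119), from 81.8 ± 55.5 CPM to 17.2 ± 6.53 and 17.6 ± 9.27. Grb10, an adaptor that dampens both receptors, rose from 61.9 ± 24.5 CPM to 187 ± 33.4 at day 3 (1.66 ± 0.24, adjusted p = 3.43e-05) and 263 ± 51.9 at day 7 (2.15 ± 0.24, adjusted p = 4.06e-06). Irs4 had no count in any library.

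All 3 tested genes of the list of IGF2 mRNA-binding proteins and H19 rose at both days, beside 30.1% and 32.3% of all genes called higher. Igf2bp2, whose protein binds Igf2 and other mRNAs, went from 6.90 ± 3.64 CPM to 56.8 ± 17.8 at day 3 (3.12 ± 0.32, adjusted p = 2.30e-06) and 41.1 ± 7.82 at day 7 (2.69 ± 0.33, adjusted p = 7.56e-06). H19, a noncoding RNA made from the maternal allele beside Igf2, held 3.09, 44.6, 5.11, 13.9 and 25.5 CPM in the controls. The day 3 grafts held 227, 88.5, 65.9, 101 and 104 CPM and the day 7 grafts 511, 806, 332, 458 and 152 CPM. H19 rose by 3.18 ± 0.60 (adjusted p = 0.000396) and 5.06 ± 0.64 (adjusted p = 1.09e-05), with every graft above every control. Without the 5 libraries these changes were 4.39 and 6.89. Between the grafts the change was 1.88 ± 0.55 (adjusted p = 0.064, not called). It was called without control 2 (1.88) or 4 (1.87), day 3 graft 1 (2.16), day 7 graft 5 (2.23) or both grafts (2.5, adjusted p = 0.0149). Unlike Igf2, it was high in day 7 graft 4 and in day 3 grafts 2 to 5. The list of binding protein-like genes had 1 tested member, which was called in no comparison.

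**Figure D5:**
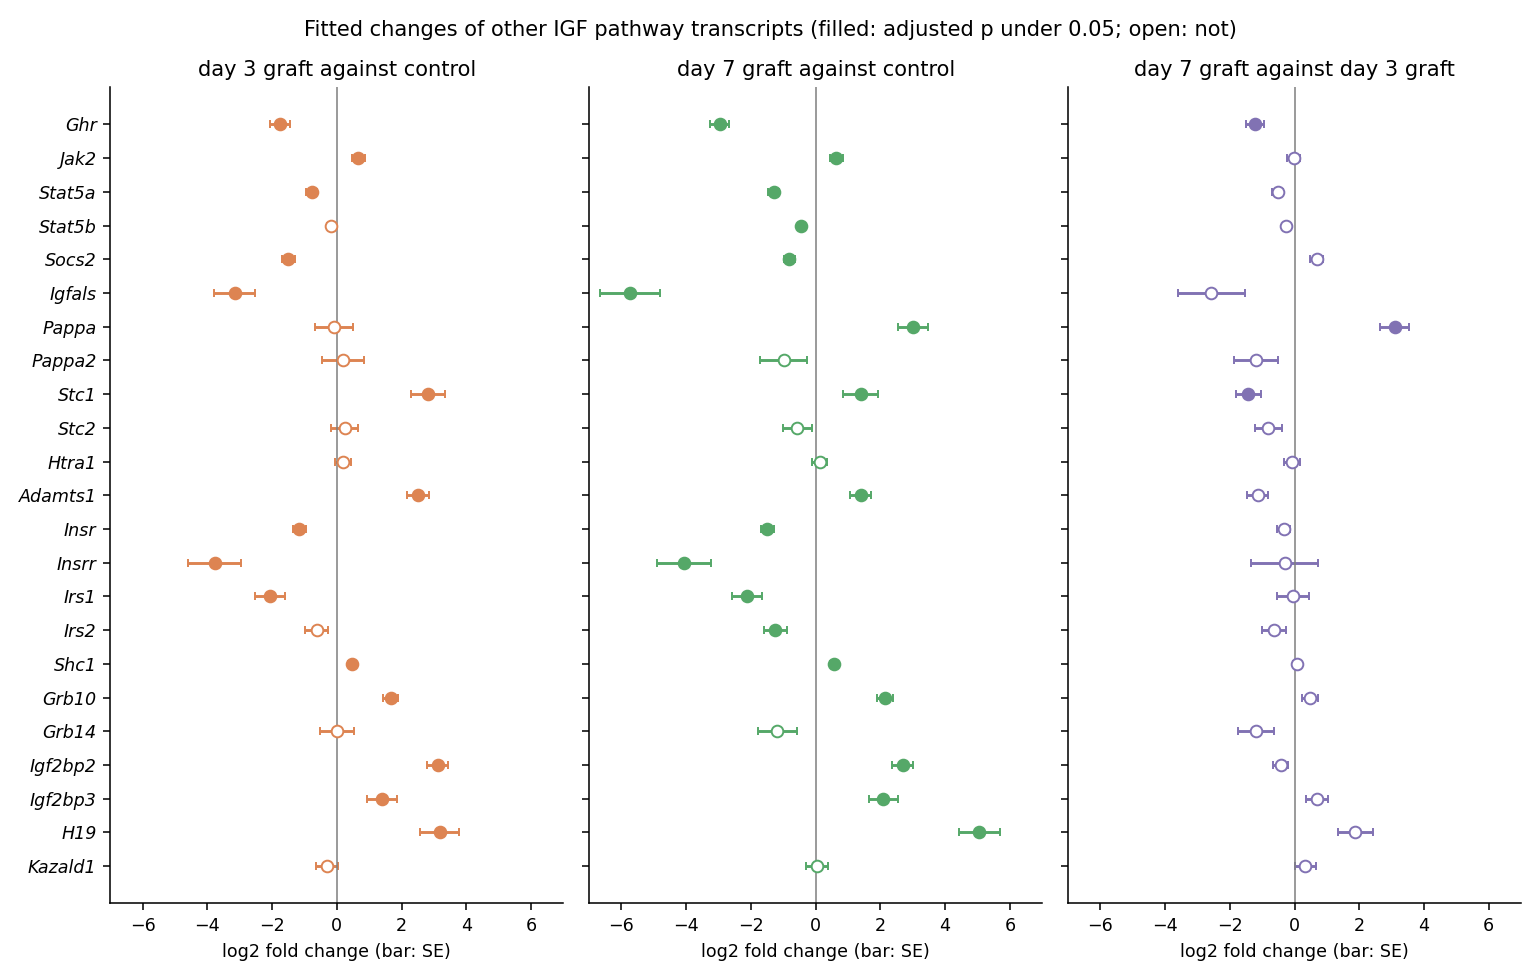
Fitted log2 fold changes of the 23 tested pathway genes in the 3 comparisons, with SE as bars, filled where the adjusted p is under 0.05. H19 and Igf2bp2 lie to the right and Igfals, Insrr, Ghr and Irs1 to the left against control at both days, and Pappa is to the right at day 7 (3.01) and near 0 at day 3 (-0.09).

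Several of these genes are neighbours in mm10, the build of the positions. Igfbp5 and Igfbp2 lie on opposite strands of chromosome 1 with 5457 bases between them, and both were lower at day 3. Igfbp3 and Igfbp1 lie on opposite strands of chromosome 11 with 3539 bases between them, the former at 165 CPM or more in every graft and the latter at or near 0. H19 and Igf2 lie on the minus strand of chromosome 7 with 72622 bases and 1 other gene between them. Igf2os overlaps Igf2 by 7124 bases and Igf1os overlaps Igf1 by 5117 bases, each on the opposite strand. The libraries were stranded, but no source used here says whether counting used strand, so reads within an overlap cannot be told apart. Igf1os was at 0.150 to 2.38 TPM and Igf2os at 0.040 TPM or less in every sample.

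The genes most like each member over the 15 samples, by Pearson's r of log2 CPM, follow as a description without a test. All points share the libraries and their scaling, and differences between groups enter r. For Igfbp3 they were Kcne3, Sh2d5 and Ier3 (0.980 to 0.981), for Igf2r Col8a1, Tbc1d2b and Lhfpl2 (0.975 to 0.979), and for Igf1r Bean1, Dock4 and Synpo (0.952 to 0.958). Igf2 was nearest to Myl4, a myosin light chain of developing and atrial muscle (0.950), Npnt (0.904) and Lrrn1 (0.884). Igf1 was nearest to Arsb, Zfhx4 and Smoc2 (0.875 to 0.890). Of the other binding proteins, Igfbp5 was nearest to Rgma, Fn3krp and Myorg (0.935 to 0.953), Igfbp7 to Nptxr, the basement membrane collagen Col4a1 and Rasal2 (0.900 to 0.933), and Igfbp6 to Sema3e, Htra3 and Plac9b (0.926 to 0.929). Igfbp2 was nearest to Txndc16, Zfp142 and Mphosph9 (0.911 to 0.916) and Igfbp4 to Entpd2, Slc6a12 and Scn7a (0.876 to 0.906).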

How the data were processed

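Per the labels' protocols, RNA was taken up in Trizol, cleaned on columns and made into stranded, paired-end mRNA libraries. Build mm10 and the tools STAR 2.7.1a, RSEM 1.3.1 and cutadapt 2.8 are listed, without roles, in the submitters' processing notes. The authors deposited 1 matrix that gives RPKM, TPM and estimated counts for every gene and sample, per the file headers. The deposited counts are whole numbers written with digit separators. The deposited RPKM values, scaled by the authors for length and library size, were not used. The deposited TPM values served for levels between genes, shares and 1 alternative fit, whose log2 values carry a pseudocount of 1.

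Genes entered with at least 0.3894 CPM in at least 5 samples and 15 counts in all. Counts were scaled by TMM (trims of 30% and 5%, factors 0.746 to 1.14) and fitted with voom in limma 3.58.1 (R 4.3.3), with 15 samples in 1 fit of 3 group means and Benjamini-Hochberg adjustment over all genes. The fit was tested on simulated data with the same dispersion for all genes, few changed genes and no outlying libraries. That setting is unlike these data, so it does not show how the fit does here. Alternatives changed scaling, filter, samples, block, weights and values, or left out libraries. Figures used matplotlib 3.10.9.

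The genes and lists were chosen with earlier results of these data known. All 10 genes are named in each comparison. Pathway genes are named where they are among the 4 largest called changes of a direction and average 1 CPM or more in a group, with Igfbp1 and Igfals in any case, and 3 nearest genes are named per member, without predicted genes, pseudogenes and immune receptor segments.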

Additional observations from a re-analysis of the deposited data

Results flagged for a closer look

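In each group of 5 the highest and lowest sample of every IGF gene was compared with the rest. Of 30 such groups 4 held a sample whose gap to its nearest neighbour was over 0.710 of the whole range, where chance gives about 1 in 20. Igf1 stood at 463.9 CPM in control 4, with the other controls at 130 to 158 CPM. Igf2 stood at 21.65 CPM in day 3 graft 1, with the others at 0.295 to 0.723 CPM. Igf2r stood at 194.9 CPM in day 7 graft 5, below the others at 313 to 344 CPM. Igfbp2 stood at 0.2001 CPM in day 3 graft 1, which is 5 counts beside 1 or 2 in the other day 3 grafts.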

How the results depend on the processing

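The 5 libraries left out together are controls 2, 4 and 5, day 3 graft 1 and day 7 graft 5, so that only controls 1 and 3 remain. On the second principal component controls 2 (13) and 5 (21) lay between controls 1 (2.8) and 3 (30.9). On the first component control 5 (-98.2) was the control nearest the grafts (52.7 to 82.6), and the other controls lay at -157.8 to -129.1. Control 5 also had the highest control sums of macrophage (3955 TPM) and of fibroblast and progenitor markers (3149 TPM). The count of IGF genes called was 7 at day 3 (5 to 9 over the alternatives) and 5 at day 7 (5 to 8, with 8 without the 5 libraries). Between the grafts it was 0, and it was 1 with library totals, 1 with only the 2 groups compared, 1 on TPM, 5 with quality weights, 7 without the 5 libraries, 4 without day 3 graft 1 and day 7 graft 5, and 0 to 4 with each sample left out. All genes called between the grafts numbered 784, and 1400 with only the 2 groups, 3661 with quality weights, 3033 without the 5 libraries, 1504 without both grafts, and 318 to 1525 with each sample left out. Signs turned for 5 changes that were not called. Igfbp6 at day 7 (-0.05) was 0.01 with library totals, 0.36 on TPM, 0.52 without the 5 libraries and -0.40 to 0.29 with each sample left out. Pappa at day 3 (-0.09) was 0.23 with quality weights, 0.02 on TPM, 0.17 without the 5 libraries and -0.40 to 0.29. Irs1 between the grafts (-0.05) was 0.10 with the replicate block, 0.21 with quality weights, 0.06 on TPM, 0.16 without the 5 libraries, 0.16 without both grafts and -0.32 to 0.25. Insrr between the grafts (-0.30) was 0.08 with quality weights, 0.12 without both grafts and -0.99 to 0.38, and Igfbp4 between the grafts (0.17) was 0.00 to 0.28. The cause was not tested. Same-numbered samples correlated at -0.19 to 0.34 in their deviations, which is not above 0.1 for every pair, so the numbers were not taken as pairing the samples. With the number as a replicate block 8, 5 and 0 IGF genes were called in the 3 comparisons, and in none of them did every sample correlate best with its own number (at most 1 did). Depth limits Igfbp2, with 1 to 5 counts in each day 3 graft, and Insrr and Pappa2 were also tested on few counts.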

Other observations

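Genes chosen after the values were seen extend the picture around Igf2 and H19, and are given without a test. Of 10 other imprinted genes (Dlk1, Meg3, Mest, Peg3, Plagl1, Cdkn1c, Ndn, Sgce, Zim1 and Peg10), 4 lay above every control in all day 3 grafts and 6 in all day 7 grafts, on TPM. Of all tested genes 40.4% and 42.5% did not overlap, but these shares count both directions and are on CPM. The share of all genes above every control on TPM was not taken, so the counts have no like background. Mest, an enzyme-like protein of growing fat cells, ranged from 0.830 to 3.31 TPM in the controls, 42.3 to 86.5 at day 3 and 23.4 to 123 at day 7, where 23.4 was day 7 graft 5. Meg3, a noncoding RNA made beside Dlk1, had medians of 37.4, 208 and 488 TPM. Dlk1, a marker of fat cell precursors, was at 0.360 TPM or less in the controls, 0.170 to 1.89 at day 3 and 3.69 to 37.2 at day 7. Peg3 (5.84 to 24.3, 7.24 to 15.1 and 13.4 to 18.6 TPM) overlapped between all groups.

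Day 3 graft 1, the library with the most Myog, also set the day 3 maximum of 4 other genes of developing muscle, namely Myod1 (8.09 TPM), Myh3 (26.1), Myh8 (4.84) and Chrna1 (11.7), each with a median of 0.250 TPM or less at day 3. In the day 7 grafts their maxima were 0.760, 10.5, 9.57 and 3.02 TPM.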
